A study of Mus musculus with 2 samples.

Results

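The genes of the platelet-derived growth factor (PDGF) system were examined in mouse embryonic heart. They are the 4 ligand genes Pdgfa, Pdgfb, Pdgfc and Pdgfd and the 2 receptor genes Pdgfra and Pdgfrb, taken by symbol from the GENCODE M21 gene tables, and they make up 6 of 55536 annotated genes. Polyadenylated RNA was sequenced in 2 libraries, biological replicates 1 and 2 of a single group, so no treatment, genotype or age was compared. Both libraries came from hearts of strain B6NCrl at embryonic day 12.5, with male and female embryos pooled. Each started from 10 ng of RNA, and the labels describe total RNA primed with oligo-dT. Each library was fragmented by Nextera tagmentation and carried ERCC transcripts, synthetic RNAs of known sequence, at 1000 times the single-cell amount. The labels give both libraries 1 donor identifier and separate biosamples, so the spread between them may be partly technical.

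PDGFs are secreted as disulphide-linked dimers and act on receptor tyrosine kinases that pair up when a ligand binds. PDGF-A and PDGF-B are cut by furin-type convertases inside the cell, whereas PDGF-C and PDGF-D are secreted with an inhibitory CUB domain that extracellular proteases remove. PDGFR-alpha, the product of Pdgfra, binds the A, B and C chains, and PDGFR-beta, the product of Pdgfrb, binds the B and D chains. In the developing heart Pdgfra marks cushion mesenchyme and the epicardium-derived cells that become fibroblasts, and Pdgfrb marks epicardium-derived cells and the pericytes and smooth muscle cells of vessels. Pdgfb is made by endothelium, megakaryocytes and other cells, and Pdgfa is made by many epithelia and by muscle.

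All 6 genes were detected, that is, reached a TPM of at least 1 in both libraries. TPM is an abundance scaled by effective length and to the same total in every library. Pdgfra stood highest at 32.2 ± 0.141 TPM (SD, n = 2), followed by Pdgfa at 28.1 ± 1.55 TPM and Pdgfrb at 21.9 ± 1.49 TPM. Pdgfd at 8.53 ± 0.226 TPM and Pdgfc at 5.77 ± 0.0707 TPM were lower, and Pdgfb at 1.565 ± 0.276 TPM was lowest. Transcript choice within the ligand genes was uneven, and the sequences that distinguish the alternative products come first.

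The coding sequence of Pdgfa has alternative ends. The long end is coded by an extra exon of 69 bases (chr5:138978622-138978690 on mm10, minus strand), which holds 17 whole codons before its stop, 11 of them for lysine or arginine. The basic stretch it codes for is known as a retention motif, which binds heparan sulphate at the cell surface. The short end skips this exon. Both ends are shown spliced from the last 21 bases of the shared exon, from GENCODE M21 transcripts, with the stop codon in capitals.
Pdgfa short end, Pdgfa-202, chr5:138977217-138979166: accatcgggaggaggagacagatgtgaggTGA
Pdgfa long end, Pdgfa-201, chr5:138978635-138979166: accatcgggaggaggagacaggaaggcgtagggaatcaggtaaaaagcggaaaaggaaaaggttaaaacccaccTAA

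In Pdgfc, an exon of 59 bases on the plus strand follows the first exon of Pdgfc-202 and is absent from Pdgfc-201. Its length is not a multiple of 3 and it holds a stop codon, shown in capitals, which leaves an annotated reading frame of 57 codons in place of 345.
Pdgfc exon with a stop, Pdgfc-202, chr3:81131018-81131076: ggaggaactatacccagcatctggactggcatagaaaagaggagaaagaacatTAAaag

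In Pdgfd, both differences lie in the coding sequence, on the plus strand. The second exon is annotated with and without 18 bases at its start, given in capitals, which leave the reading frame unchanged. A later exon of 215 bases, within the growth factor domain, is skipped in Pdgfd-203. The skip shifts the frame, and the reading frame ends shortly after the junction, at 261 codons in place of the 364 of Pdgfd-201. The joined end is shown from the last 21 bases before the junction with its stop codon in capitals.
Pdgfd second exon start, longer, Pdgfd-202, chr9:6288472-6288513: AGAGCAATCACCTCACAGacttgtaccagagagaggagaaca
Pdgfd second exon start, shorter, Pdgfd-201, chr9:6288490-6288513: acttgtaccagagagaggagaaca
Pdgfd skipped exon, Pdgfd-201, chr9:6359703-6359917: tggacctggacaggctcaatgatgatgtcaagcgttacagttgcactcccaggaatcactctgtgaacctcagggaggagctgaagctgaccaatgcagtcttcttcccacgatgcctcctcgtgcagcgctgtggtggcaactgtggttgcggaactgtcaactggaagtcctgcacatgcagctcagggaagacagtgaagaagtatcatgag
Pdgfd end after the skip, Pdgfd-203, chr9:6337421-6376908: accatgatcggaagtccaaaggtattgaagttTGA

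**Figure D1:**
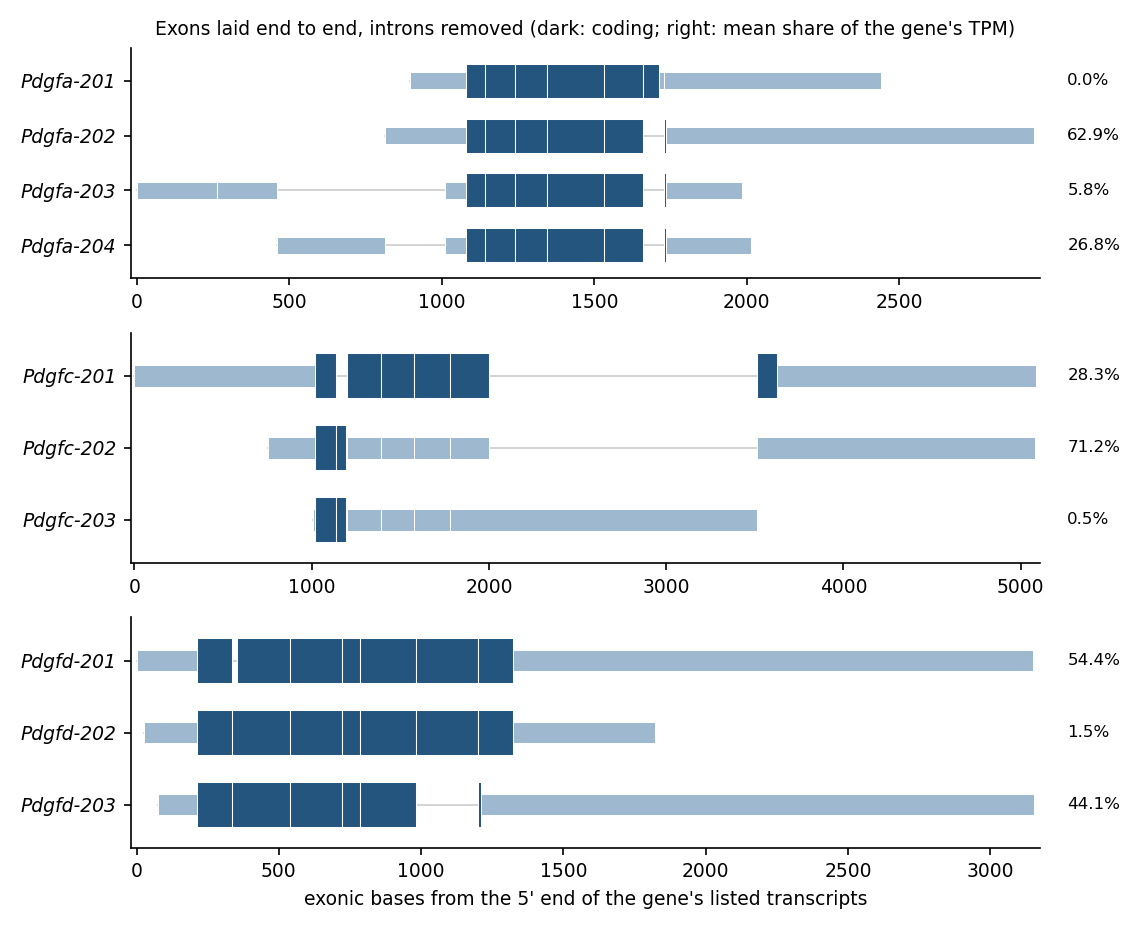
Exons of the annotated transcripts of Pdgfa, Pdgfc and Pdgfd laid end to end with introns removed (horizontal axis, exonic bases from the 5′ end of the transcripts drawn), with coding parts dark and tall and noncoding parts light. The percentage at the right is the mean share of the gene's TPM over 2 libraries: Pdgfa-201, with the extra exon, has 0, Pdgfc-202, with the exon that holds a stop, has 71.2%, and Pdgfd-203, which skips an exon, has 44.1%.

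Summed expected counts, in which reads of ambiguous origin are divided among the genes they could come from, were 35520161 in replicate 1 and 32577548 in replicate 2. In all, 14246 genes were detected, 12455 of them nuclear protein-coding genes with a median of 19.1 TPM. For the tissue label, all 12 cardiomyocyte markers were detected and their median was 2319 ± 25.95 TPM (SD, n = 2). The libraries were not alike in liver messages: the 14 hepatocyte markers summed to 266.1 TPM in replicate 1 and 71.97 TPM in replicate 2. By the test described below, 13 of the 14 were called lower in replicate 2, beside 1.45% of all genes called in either direction. The 12 megakaryocyte and platelet markers summed to 117.6 TPM in replicate 1 and 149.99 TPM in replicate 2.

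Among the ligands, Pdgfa (ENSMUSG00000025856, chr5:138976014-138997370, minus strand, 7 annotated transcripts) codes for the PDGF-A chain. Replicate 1 gave 26.96 TPM and replicate 2 gave 29.15 TPM, from 1092 and 1070 counts. Its level lay above 61.1% of detected nuclear protein-coding genes. The deposited 95% credibility intervals, which cover the estimation of each library alone, were 25.3 to 29.9 TPM and 27.3 to 32.9 TPM, and they overlapped. Pdgfa supplied 63.6% of summed ligand TPM in replicate 1 and 64.2% in replicate 2.

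Pdgfd (ENSMUSG00000032006, chr9:6168584-6378850, plus strand, 3 transcripts) codes for PDGF-D, a ligand of PDGFR-beta. It stood at 8.37 TPM in replicate 1 and at 8.69 TPM in replicate 2, from 601 and 558 counts. Pdgfc (ENSMUSG00000028019, chr3:81036416-81214040, plus strand, 3 transcripts), whose product binds PDGFR-alpha, had 5.72 and 5.82 TPM from 411 and 379 counts. Pdgfd lay above 28.6% of detected nuclear protein-coding genes and Pdgfc above 20.5%. Both were under the median of detected genes, and their library values did not overlap.

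Pdgfb (ENSMUSG00000000489, chr15:79995874-80014977, minus strand, 4 transcripts) codes for PDGF-B, which is known for drawing pericytes to new vessels. It stood at 1.37 TPM in replicate 1 and at 1.76 TPM in replicate 2, from 95 and 110 counts, and lay above 3.28% of detected nuclear protein-coding genes. Pdgfb was the shallowest of the 6 genes and had the largest spread, with an SD of 17.6% of its mean. Its deposited intervals, 1.22 to 2.18 TPM and 1.59 to 2.81 TPM, overlapped.

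Of the receptors, Pdgfra (ENSMUSG00000029231, chr5:75152292-75198215, plus strand, 9 transcripts) stood at 32.30 TPM in replicate 1 and at 32.10 TPM in replicate 2, from 4710 and 4223 counts. It lay above 65.5% of detected nuclear protein-coding genes, and its SD was 0.439% of its mean, the smallest of the 6. Pdgfrb (ENSMUSG00000024620, chr18:61045150-61085061, plus strand, 2 transcripts) had 20.82 and 22.93 TPM from 2727 and 2716 counts, above 53.9% of detected genes of that class. Both receptors were above the median of detected genes, as was Pdgfa, the most abundant ligand.

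**Figure D2:**
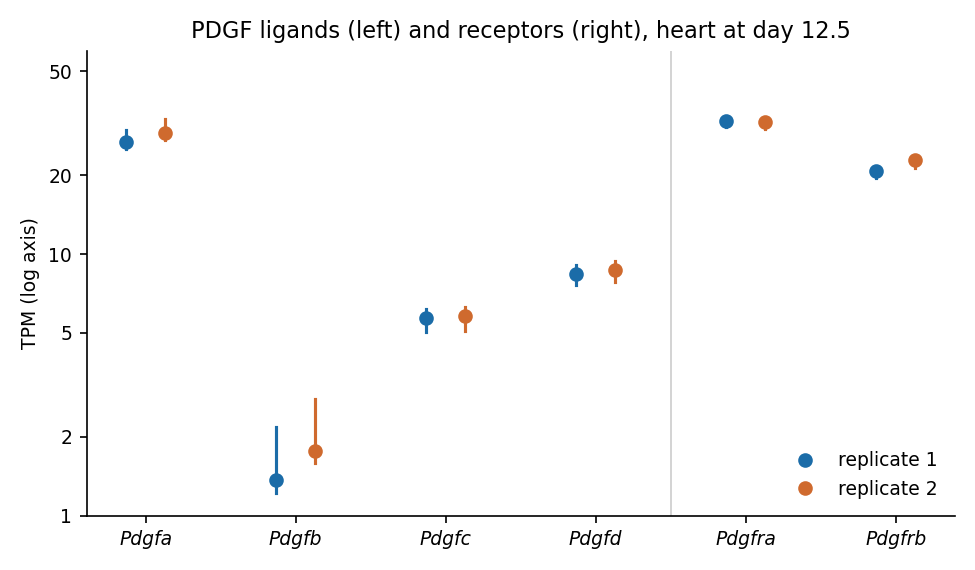
TPM of the 4 ligand and 2 receptor genes (vertical log axis) in replicate 1 (blue) and replicate 2 (orange). Points are library values and bars are the deposited 95% credibility intervals; Pdgfa, Pdgfra and Pdgfrb sit between 20.82 and 32.30 TPM and Pdgfb sits between 1.37 and 1.76 TPM.

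The order of levels was Pdgfra, Pdgfa, Pdgfrb, Pdgfd, Pdgfc and Pdgfb, and the library values of no neighbouring pair overlapped. The closest neighbours were Pdgfra and Pdgfa, whose means differed by 4.145 TPM, or 1.15-fold, and whose deposited intervals overlapped in replicate 2. On the older M4 annotation these values did overlap: Pdgfa stood at 28.04 and 30.29 TPM and Pdgfra at 30.40 and 30.20 TPM, so their order there depended on the library. Pdgfa exceeded Pdgfrb by 1.28-fold, Pdgfrb exceeded Pdgfd by 2.56-fold, Pdgfd exceeded Pdgfc by 1.48-fold and Pdgfc exceeded Pdgfb by 3.69-fold.

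Summed over genes, ligands reached 42.42 TPM in replicate 1 and 45.42 TPM in the other library, and receptors had 53.12 and 55.03 TPM. With 0.5 added to each TPM sum, the log2 ratio of receptors to ligands was 0.30 ± 0.03 (SD, n = 2), with 0.32 in replicate 1 and 0.27 in replicate 2. Receptors were thus higher per length in both libraries, by 1.25-fold and 1.21-fold. In counts that are not divided by length the receptors exceeded the ligands 3.38-fold and 3.28-fold. The effective length, the number of positions from which a read can start, was 5910 bases for Pdgfra and 1642 bases for Pdgfa in replicate 1. These ratios compare different genes and are given without a test.

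Matched chains and receptors were unequal in both libraries. The log2 ratio of Pdgfrb to Pdgfra was -0.55 ± 0.10, and Pdgfra held 60.8% of receptor TPM in replicate 1 and 58.3% in replicate 2. Pdgfa exceeded Pdgfb by a log2 ratio of 3.79 ± 0.11, and Pdgfc was under Pdgfd by -0.53 ± 0.02 and under Pdgfa by -2.19 ± 0.06. Against a receptor each is known to bind, Pdgfa stood at -0.20 ± 0.08 relative to Pdgfra and Pdgfb at -3.44 ± 0.10 relative to Pdgfrb. All 6 ratios had the same sign in both libraries. In counts not divided by length, Pdgfa stood at -2.04 relative to Pdgfra, Pdgfb at -4.73 relative to Pdgfrb and Pdgfc at -1.45 relative to Pdgfa. In whole tissue, fewer cells that make a message and less of it in each cell cannot be told apart.

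Within Pdgfa, Pdgfa-202, with the short coding end, held 62.4% of the gene's TPM in replicate 1 and 63.4% in replicate 2. Pdgfa-204 held 26.7% and 26.9%, and Pdgfa-203 held 7.06% and 4.63%; both also have the short end but start at exons farther upstream. Together the 3 transcripts with the short end had 96.2% and 94.96%. No count was assigned to Pdgfa-201, the transcript with the basic end printed above, in either library. If every count of the gene could tell the transcripts apart, a count of 0 would allow a share of up to 0.275% and 0.280%. Pdgfa-201 shares 1474 bases with Pdgfa-202, so that bound is too low. As posterior means, which do not stay at 0, Pdgfa-201 held 1.08% of TPM in replicate 1 and 0.79% in replicate 2. The deposited interval is wider and reaches 0.814 TPM and 0.699 TPM. Pdgfa-201 also starts later in its first exon and ends earlier in its 3′ exon than Pdgfa-202, so its share does not rest on the extra exon alone.

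Transcripts of Pdgfa that begin at the upstream exons (Pdgfa-203, Pdgfa-204 and Pdgfa-206) held 37.6% of TPM in replicate 1 and 33.8% in replicate 2. Pdgfa-203 and Pdgfa-204 also end earlier in the last exon than Pdgfa-202. Pdgfa-202 has 1127 bases that Pdgfa-204 lacks, against 354 the other way round, so these shares do not rest on the first exons alone. The upstream exons overlap 6330403L08Rik, an antisense gene with 0.99 and 1.07 TPM, over 459 bases of Pdgfa-203, 354 of Pdgfa-204 and 268 of Pdgfa-206. Whether strand was used in counting is not given in the sources used here, so reads from this stretch cannot be assigned to either gene with certainty.

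Within Pdgfc, the transcript with the stop-bearing exon was the larger part. Pdgfc-202, annotated as a target of nonsense-mediated decay (the pathway that degrades messages with early stops), held 72.2% of TPM in replicate 1 and 70.2% in replicate 2. Pdgfc-201, which codes for the full protein, held 27.8% and 28.9%, or 1.59 and 1.68 TPM. The deposited intervals of the transcripts did not overlap in replicate 1 (1.06 to 2.13 TPM for Pdgfc-201 against 3.23 to 4.73 TPM for Pdgfc-202) or in replicate 2 (1.09 to 2.32 against 3.07 to 4.75 TPM). The split does not rest on that exon alone, because Pdgfc-201 also has 762 bases that Pdgfc-202 lacks, most of them at its 5′ end, against 59 bases found in Pdgfc-202 and not in Pdgfc-201. The share of the exon itself was therefore not measured.

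Within Pdgfd, Pdgfd-201, which codes for the full protein, held 54.4% of TPM in replicate 1 and 54.5% in replicate 2. Pdgfd-203, which lacks the exon of 215 bases printed above, held 45.6% and 42.6%, and Pdgfd-202, which has no skip, held 0 and 2.95%. Both Pdgfd-203 and Pdgfd-202 carry the 18 extra bases of the second exon, and together they held 45.6% of TPM in each library. In TPM, Pdgfd-201 stood at 4.55 and 4.73 and Pdgfd-203 at 3.82 and 3.70. Their deposited intervals overlapped in both libraries, at 3.26 to 5.16 against 2.76 to 4.72 TPM in replicate 1 and 3.31 to 5.75 against 2.27 to 4.67 TPM in replicate 2. The annotation decides this split: M4 has no Pdgfd-203, and there Pdgfd-201 held 79.4% and 80.2% and Pdgfd-202 held 20.7% and 19.8%. The skipped exon is also not the sole difference, since 292 bases occur in Pdgfd-201 and not in Pdgfd-203, and 23 the other way round.

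Within Pdgfb, Pdgfb-201 held 95.8% of TPM in replicate 1 and 93.7% in replicate 2, and Pdgfb-202, a retained-intron transcript, held 4.16% and 6.35%. These shares rest on 95 and 110 counts, and as posterior means, which do not stay at 0, Pdgfb-201 held 76.1% and 72.6%. In each receptor gene a single transcript held most of the TPM. Pdgfra-201 held 84.3% and 82.9% of its gene, and Pdgfra-202, which starts farther downstream and codes for the same number of codons, 1089, held 3.87% and 5.90%. Pdgfra-205 and Pdgfra-208, which end early at 790 codons, together held 4.98% and 2.99%. All counts of Pdgfrb were assigned to Pdgfrb-201, which differs from Pdgfrb-202 by 55 bases of its own and 71 of the other, with a posterior SD of 27.7 counts in replicate 1 and 31.9 in replicate 2.

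**Figure D3:**
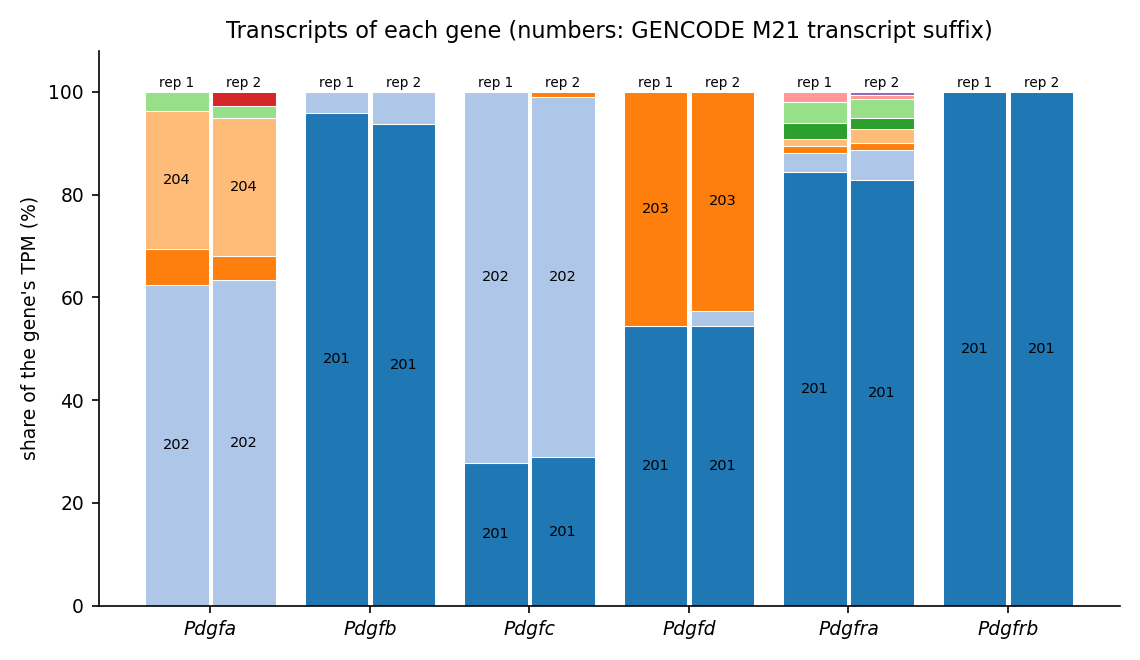
Share of each gene's TPM (vertical axis, percent) by annotated transcript in replicate 1 (left bar of each pair) and replicate 2 (right bar). Numbers on the segments are transcript suffixes; Pdgfb-201, Pdgfd-201, Pdgfra-201, Pdgfrb-201, Pdgfa-202 and Pdgfc-202 lead in their genes.

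The libraries were compared with an exact conditional binomial test on scaled counts, which covers counting error and concerns these libraries alone. Genes called are those with a Benjamini-Hochberg adjusted p under 0.05 and a log2 ratio of 1 or more in size. Of 17970 genes tested, 260 were called (1.45%), and without the fold requirement 1744 passed (9.71%). None of the 6 PDGF genes was called, none passed without the fold requirement, and 1 of the 6, Pdgfrb, had an unadjusted p under 0.05, as did 3954 of all genes tested (22%).

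As log2 ratios of replicate 2 over replicate 1 with exact 95% intervals, Pdgfrb stood at 0.11 (0.03 to 0.19; exact binomial p = 0.00609, adjusted p = 0.0584) and Pdgfa at 0.08 (-0.04 to 0.21). Pdgfra stood at -0.04 (-0.10 to 0.02), Pdgfc at 0.00 (-0.21 to 0.20) and Pdgfd at 0.01 (-0.16 to 0.18). The interval of each of these 5 genes lay within 0.21 of 0 on this scale. Pdgfb had the largest ratio, 0.32, and the widest interval, -0.08 to 0.74 (exact binomial adjusted p = 0.380), so a difference of about that size was not detectable at its depth.

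Of 12 markers of megakaryocytes, a known source of Pdgfb, 6 passed without the fold requirement, all higher in replicate 2, and 1, Gp6, was called (0.37 and 1.04 TPM). Over all genes tested, 9.71% passed without the fold requirement and 1.45% were called, in either direction. The median log2 ratio of these 12 markers was 0.39, beside -0.01 over all genes tested. Pf4, a platelet chemokine, was highest at 58.77 and 70.64 TPM, followed by Itga2b at 12.92 and 17.51 TPM and Ppbp at 10.46 and 16.08 TPM. Endothelial markers, whose cells also make Pdgfb, had a median log2 ratio of 0.04, with 1 of 12 passing higher, 1 passing lower and none called. The part of either cell type in the Pdgfb values was not tested.

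**Figure D4:**
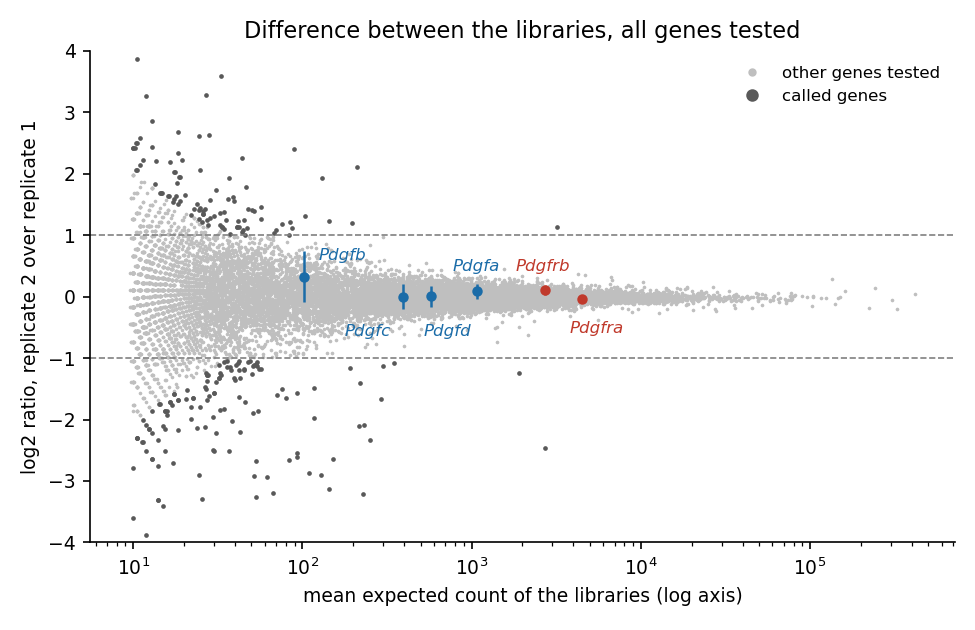
Log2 ratio of replicate 2 over replicate 1 (vertical axis) against the mean expected count of each gene (horizontal log axis) for the 17970 genes tested, with called genes dark grey and dashed lines at a log2 ratio of 1 and -1. The 4 ligands (blue) and 2 receptors (red) carry 95% intervals and all lie within the dashed lines; 27 genes lie outside the plotted range of 4.

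Markers of cell classes known to carry the receptors were detected. All 13 epicardial markers were detected (median 16.4 ± 0.318 TPM, SD, n = 2), led by the keratin Krt19 at 68.2 ± 0.389 TPM, the transcription factor Tcf21 at 58.97 ± 1.39 TPM and the uroplakin Upk3b at 47.1 ± 0.0495 TPM. All 15 markers of cushion and epicardium-derived mesenchyme were detected, with a median of 112 ± 1.04 TPM, led by the intermediate filament gene Vim and the matrix genes Col3a1 and Fn1. Without the fold requirement, 1 of 13 epicardial genes passed lower, beside 9.71% of all genes tested passing in either direction. Of 15 mesenchymal genes 5 passed lower and 2 higher. The 5 lower were Lum at -0.22, Dcn at -0.19, Col1a1 at -0.18, Col3a1 at -0.07 and Col1a2 at -0.05. The 2 higher were Fn1 and Vim, each at 0.04. None was called in either list. The median log2 ratios of the lists were -0.07 and -0.05.

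Mural cell markers were mixed. Of 13 pericyte markers 10 were detected, with a median of 6.40 ± 1.68 TPM, led by Des, Mcam and Cspg4, of which Des is also made by cardiomyocytes and Mcam by endothelium. Higd1b was at 0 in both libraries and Zic1 stood at 0.06 and 0.02 TPM. Vtn, which liver also makes, was called lower in replicate 2 (2.85 and 0.35 TPM), alongside the hepatocyte markers. Of 9 smooth muscle markers 8 were detected, with a median of 57.6 ± 1.02 TPM, led by Acta2, Cnn1 and Tagln, which embryonic cardiomyocytes also express. Myh11, the myosin heavy chain of mature smooth muscle, was called higher in replicate 2, at 0.58 and 1.37 TPM.

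Markers of neural crest and of cartilage, where PDGF receptors are also known, were detected in part. Of 9 neural crest and glial markers 3 were detected, led by Tubb3 and Erbb3, with Olig2 at 0 in both libraries and Foxd3 at 0.02 and 0 TPM. Of 7 cartilage and sclerotome markers 3 were detected, led by Col2a1 at 61.2 ± 0.742 TPM, which valve mesenchyme also makes, whereas Pax1 stood at 0.03 and 0.05 TPM and Pax9 at 0.05 and 0.04 TPM. Their summed levels were 16.64 and 16.08 TPM and 104.0 and 100.8 TPM. No member of either list passed between the libraries without the fold requirement, beside 9.71% of all genes tested. Of 12 endocardial and endothelial markers, all were detected, led by Plvap, Eng and Emcn.

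The nearest relatives of the PDGF genes are the VEGF ligands and the receptors of the PDGF and VEGF receptor classes. The list used here also held Kitl, Csf1, Il34 and Flt3l, which are neither VEGF ligands nor receptors. Of the 16 genes of this wider list 13 were detected, with a median of 6.92 ± 0.00707 TPM. The vascular growth factor Vegfb was highest at 102.4 ± 6.03 TPM, and the VEGF receptors Kdr at 37.7 ± 0.170 TPM and Flt1 at 22.7 ± 1.31 TPM were near the PDGF receptors. Pdgfra and Pdgfa lay between Kdr and Flt1, and Pdgfb lay under Vegfd.

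Further ligands of the family were Vegfc at 16.7 ± 1.87 TPM, Pgf at 6.475 ± 0.0636 TPM, Vegfa at 5.245 ± 0.191 TPM and Vegfd at 1.70 and 2.69 TPM. Kit, the receptor of stem cell factor, had 10.4 ± 0.325 TPM and its ligand Kitl had 14.5 ± 0.849 TPM. Csf1r, the macrophage colony-stimulating factor receptor, had 7.22 ± 0.113 TPM, its ligand Csf1 had 9.935 ± 0.0919 TPM, the lymphatic VEGF receptor Flt4 had 6.605 ± 0.134 TPM and the receptor-like gene Pdgfrl had 5.615 ± 0.205 TPM. Flt3l, Il34 and Flt3 stayed under 1 TPM in both libraries. Vegfd passed higher in replicate 2 without the fold requirement and Vegfb passed lower, beside 9.71% of all genes tested passing in either direction.

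**Figure D5:**
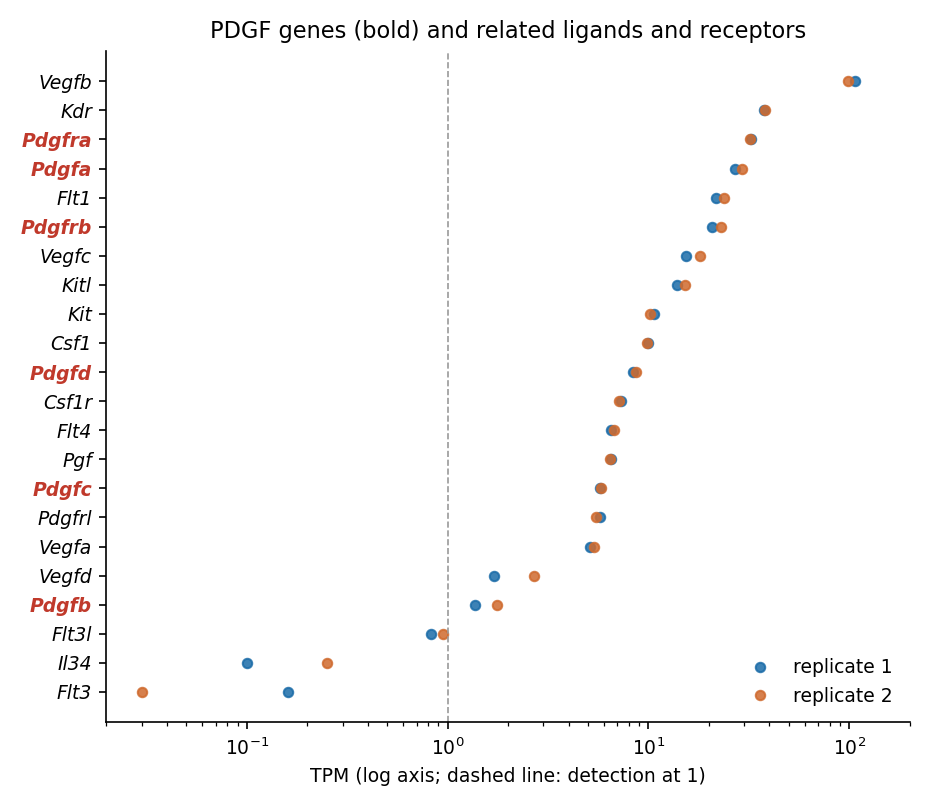
TPM (horizontal log axis) of the 6 PDGF genes (bold red labels) and 16 related ligand and receptor genes in replicate 1 (blue) and replicate 2 (orange), ordered by mean, with a dashed line at 1 TPM. Pdgfra and Pdgfa lie just under Kdr, and Pdgfb lies between Vegfd and Flt3l.

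Genes that process or bind PDGFs were next. For the A and B chains, the convertases Furin at 19.65 ± 0.707 TPM, Pcsk5 at 19.5 ± 0.375 TPM, Pcsk7 at 15.3 ± 0.269 TPM and Pcsk6 at 2.325 ± 0.262 TPM were all detected. Plat, tissue plasminogen activator, which is known to cut PDGF-C, stood at 49.12 and 49.97 TPM. The proteases known to cut PDGF-D were scarce: Plau, urokinase, had 0.89 and 0.60 TPM and St14, matriptase, had 1.01 and 1.18 TPM. Plg, plasminogen, a liver product, was called lower in replicate 2 with 1.69 and 0.22 TPM, alongside the hepatocyte markers, and their part in it was not tested.

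Of the binding partners, Sparc, a matrix protein that binds PDGF-B, was highest at 1094 ± 12.7 TPM. The co-receptor Nrp1 had 106 ± 1.26 TPM and Nrp2 had 4.735 ± 0.134 TPM, and the matrix protein Thbs1 had 88.8 ± 3.58 TPM. The proteoglycan perlecan (Hspg2) had 44.2 ± 5.14 TPM, the endocytic receptor Lrp1 34.9 ± 1.39 TPM, the heparan sulphate enzyme Ndst1 17.7 ± 0.686 TPM and the protease inhibitor A2m 1.515 ± 0.276 TPM. In all, 14 of these 16 genes were detected. Hspg2 and Lrp1 passed higher in replicate 2 without the fold requirement, 1 gene, Plg, passed lower, and the median log2 ratio was 0.01. The share of all genes tested that passed in either direction was 9.71%.

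Downstream of the receptors, all 34 genes of signal transduction were detected, with a median of 34.98 ± 1.25 TPM. Among the highest were the kinase genes Akt1 at 142 ± 2.84 TPM and Map2k2 at 127.5 ± 1.75 TPM. None was called, 1 passed lower and none higher, and the median log2 ratio was -0.01. Over all genes tested, 1.45% were called and 9.71% passed without the fold requirement, in either direction. Of 16 genes that dampen receptor signalling 15 were detected, with a median of 13.2 ± 0.0212 TPM, led by the inhibitor Spry2 at 48.0 ± 0.212 TPM and the phosphatases Ptpn1 at 47.96 ± 1.92 TPM and Dusp6 at 42.8 ± 2.32 TPM. Cblc, a ubiquitin ligase of epithelia, had 0.21 and 0.15 TPM. In this list 1 gene passed higher and none lower, and the median log2 ratio was 0.02.

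The receptor genes lie beside paralogs. Pdgfra is followed on chromosome 5 by Kit after 376700 bp and by Kdr at a distance of 734611 bp, and Pdgfrb is followed by Csf1r after 15536 bp. In both libraries Pdgfra stood above Kit and under Kdr (37.60 and 37.84 TPM), and Pdgfrb stood above Csf1r, with Pdgfra at 32.30 and 32.10 TPM against 10.61 and 10.15 TPM for Kit, and Pdgfrb at 20.82 and 22.93 TPM against 7.30 and 7.14 TPM for Csf1r. On their other sides, the homeobox genes Gsx2 and Cdx1 were at 0 in both libraries.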

How the data were processed

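PolyA RNA-seq tables of 2 heart libraries, from total RNA primed with oligo-dT, were used. They were on GENCODE M21 (main) and M4, both on mm10 per the text deposited with the tables. Expected counts, as deposited, apportion ambiguous reads among genes and transcripts; they were rounded for tests. The deposited TPM and FPKM values are scaled by effective length and library total over all rows, spike-ins included. The authors' tables also give TPM credibility bounds (a non-negative signal), a posterior SD of each count (a score), and transcript shares in percent. Aligner, counter and strand setting: not given in the sources used here.

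Totals were 35520161 counts in replicate 1 and 32577548 in replicate 2. The libraries were compared, for genes reaching 20 counts in sum, by a two-sided exact conditional binomial test on counts scaled by TMM (edgeR 4.0.16), with Benjamini-Hochberg adjustment over all genes tested. Ratios have 0.5 added. On simulated data the test was checked for known folds. Those counts held counting error alone, so the check does not give the error rate in these libraries. DESeq2 1.42.0 size factors, ERCC totals, M4, posterior means and other minimums were alternatives. Named genes are the 6 members, transcripts of at least 5%, the 3 highest, up to 2 low (under 1 TPM) and any called gene of each list, all relatives and processing genes, and overlapping or adjacent genes. A few genes that this rule names are left out of the text. The members and lists were chosen with earlier results of these data known. Intervals cover counting error only.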

Additional observations from a re-analysis of the deposited data

How the results depend on the processing

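With TPM rescaled to nuclear named genes, levels were 31.7 for Pdgfa, 6.52 for Pdgfc, 9.64 for Pdgfd, 36.4 for Pdgfra and 24.7 for Pdgfrb. On M4 they were 6.025 for Pdgfc, 9.375 for Pdgfd and 30.3 for Pdgfra, and as posterior means 1.915 for Pdgfb, 5.635 for Pdgfc and 31.97 for Pdgfra. The log2 ratio of receptors to ligands was 0.20 on M4, 0.25 with posterior means and 1.74 in counts not divided by length, where length enters the value. Between libraries, 22 of 24 alternative values of the 6 genes kept their direction and side of the threshold. The exceptions, both beside a value near 0, were Pdgfc on M4 at 0.000391 and Pdgfd with ERCC totals at -0.00295. The 24 values include those without a minimum count, a setting that cannot change these ratios. Without the fold requirement 1744 genes differed, against 260. Of 42 alternative pair ratios 0 reversed, though 3 moved by over 1.5 times in counts not divided by length. An added constant other than 0.5 cannot change a sign, nor can leaving out 1 library when both libraries share it. The ratios are means of the libraries, and on M4 in replicate 2 Pdgfa lay above Pdgfra, at 30.29 against 30.20 TPM. Leaving out 1 library leaves a single value, so the lowest and highest levels are those of the libraries. No paired analysis was possible because there is 1 group. Depth limits Pdgfb most, at 95 and 110 counts.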

Other observations

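Transcription factors of epicardial and mural cells were detected for 18 of 19 measured genes, with a median of 15.4 ± 0.912 TPM (SD, n = 2). The cardiac factors Nkx2-5 at 161 ± 5.72 TPM and Gata4 at 153 ± 5.47 TPM were highest, followed by Tcf21 at 58.97 ± 1.39 TPM. Foxd1, a factor of kidney stroma, stood at 0.02 and 0.05 TPM. None of the 18 tested genes passed between the libraries with or without the fold requirement (exact binomial test). Without it, 9.71% of all genes tested passed in either direction.

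Macrophage markers, which include the PDGF receptor relative Csf1r, were detected for 10 of 11 genes, with a median of 3.765 ± 0.389 TPM. The lysozyme gene Lyz2 at 71.1 ± 4.26 TPM and the complement genes C1qb at 14.9 ± 0.311 TPM and C1qc at 8.445 ± 1.27 TPM were highest, and the integrin gene Itgam had 0.43 and 0.30 TPM. None of the 11 passed between the libraries without the fold requirement, beside 9.71% of all genes tested.

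The ligand genes have varied surroundings. Prkar1b, the nearest protein-coding gene after Pdgfa, had 8.16 and 8.94 TPM. Rpl3, a ribosomal protein gene beside Pdgfb, had 470.6 and 491.1 TPM, whereas Cbx7 on its other side had 1.09 and 1.32 TPM. Glrb and Ctso, 122755 bp and 718560 bp from Pdgfc, had 4.345 ± 0.474 and 14.1 ± 0.601 TPM (SD, n = 2). Casp12 and Dync2h1, 795551 bp and 549652 bp from Pdgfd, had 1.98 ± 0.778 and 6.61 ± 0.665 TPM. Ddi1, which lies on the opposite strand within the span of Pdgfd, had 0.09 and 0.10 TPM.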
